A study of Mus musculus with 16 samples.

Results

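The genes described are the 10 that carry interferon signals from the cell surface to the JAK kinases and that switch the signal off again. They are the chains of the interferon gamma receptor (Ifngr1, Ifngr2) and of the type I interferon receptor (Ifnar1, Ifnar2), the kinases Jak1, Jak2 and Tyk2, and the suppressors Socs1, Socs2 and Socs3. They were taken by symbol from the deposited log2 CPM table, and all 10 were found among its 16707 genes. Primary astrocytes were bead-selected for the surface antigen ACSA2 from brains of mice at postnatal day 6 and grown for about 10 days in serum-free medium with heparin-binding EGF. WT and NLRX1-/- cells, which the labels also call KO, received vehicle (H2O) or 500 ng/mL lipopolysaccharide (LPS) with 10 ng/mL IFNγ for 24 h. Each genotype was sampled as 4 litters, and each litter gave 1 vehicle library and 1 LPS+IFNγ library, so that 16 poly-A libraries form 4 groups of 4. WT and NLRX1-/- cells came from different litters, and the litters are the replicates.

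Interferon receptors have no enzyme activity of their own. A ligand draws the chains of a receptor together, the JAK kinases bound to them become active, and these phosphorylate STAT transcription factors. IFNGR1 works with JAK1 and IFNGR2 with JAK2, while IFNAR1 works with TYK2 and IFNAR2 with JAK1. STAT dimers formed in this way bind DNA at gamma-activated sites (GAS), and SOCS proteins, made in response to the signal, bind receptors or JAKs and damp them. Astrocytes respond to IFNγ, and LPS acts through the receptor TLR4.

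The libraries held 27259420 to 43752903 assigned read pairs. Nlrx1 lay between 4.08 and 4.44 log2 CPM in the WT libraries and between 1.09 and 2.96 in the NLRX1-/- libraries, so reads of the gene remained in every NLRX1-/- library. All 10 astrocyte markers examined were in the table, at a summed level of 5386 to 10848 CPM, and the 8 oligodendrocyte lineage markers summed to 2135 to 3733 CPM, most of it Olig1. Of 9 microglia and macrophage markers 8, among them Aif1, Cx3cr1, Csf1r and Ptprc, were not in the table, and P2ry12 was. P2ry12 lay between 0.0647 and 0.357 CPM in WT vehicle libraries and 0.461 and 0.798 with LPS+IFNγ, and between 0.0481 and 0.444 and 0.616 and 1.78 in NLRX1-/-. The 6 neuronal markers in the table, led by Tubb3, summed to 21.2 to 25.5 CPM in WT vehicle libraries and 60.7 to 93.1 with LPS+IFNγ, and to 21.9 to 27.4 and 64.9 to 85.7 in NLRX1-/-. The 5 fibroblast and meninges markers summed to 141 to 153 CPM in WT vehicle libraries and 48.9 to 77.97 with LPS+IFNγ, and to 73.8 to 155 and 34.4 to 78.5 in NLRX1-/-. Among them Pdgfra, which is also counted as an oligodendrocyte lineage marker, ran from 22.2 to 134 CPM over all libraries. No other fibroblast and meninges marker exceeded 23.9 CPM. The 4 ependymal markers in the table summed to 172 to 239 and 121 to 173 CPM in WT, and to 101 to 189 and 71.6 to 117 in NLRX1-/-. The 3 endothelial and mural markers in the table stayed between 3.43 and 15.96 CPM in all groups. The part of such shifts in the results was not tested.

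In log2 CPM, LPS+IFNγ raised Socs1 by far more than any other of the 10 genes, raised Jak2, Ifnar2, Jak1 and Socs3 by smaller amounts, and left Ifnar1 near its vehicle level. In WT cells 5 of the 10 genes were called higher and 2 lower (limma on log2 CPM with the litter as a block, Benjamini-Hochberg adjusted p below 0.05 over all genes). Of all genes 24.9% were called higher and 21.9% lower in WT. In NLRX1-/- cells 6 of the 10 were called higher, against 26.6% of all genes, and 0 lower, against 25.5%. The members called higher in WT were Socs1, Jak2, Ifnar2, Socs3 and Jak1, and Tyk2 joined them in NLRX1-/-. Those called lower in WT were Socs2 and Ifngr2. The median response of the 10 genes was 0.25 in WT and 0.31 in NLRX1-/- on the log2 scale, beside -0.02 in each genotype over all genes. These are bulk cultures, in which fewer cells of a type and less RNA per cell cannot be told apart.

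How the libraries were scaled touched the small changes. Of all genes called in WT, 53.2% were higher as deposited, 39.6% after quantile normalization and 40.6% after centring each library on its median. The same shares in NLRX1-/- were 51.1%, 38.98% and 41.4%. The median response of all genes in WT moved from -0.02 to -0.09 and -0.10 on the log2 scale. Calls of Ifngr1, Ifngr2, Ifnar1 and Tyk2, whose responses were at most 0.24 in size, changed under at least 1 of these scalings in at least 1 genotype.

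**Figure D1:**
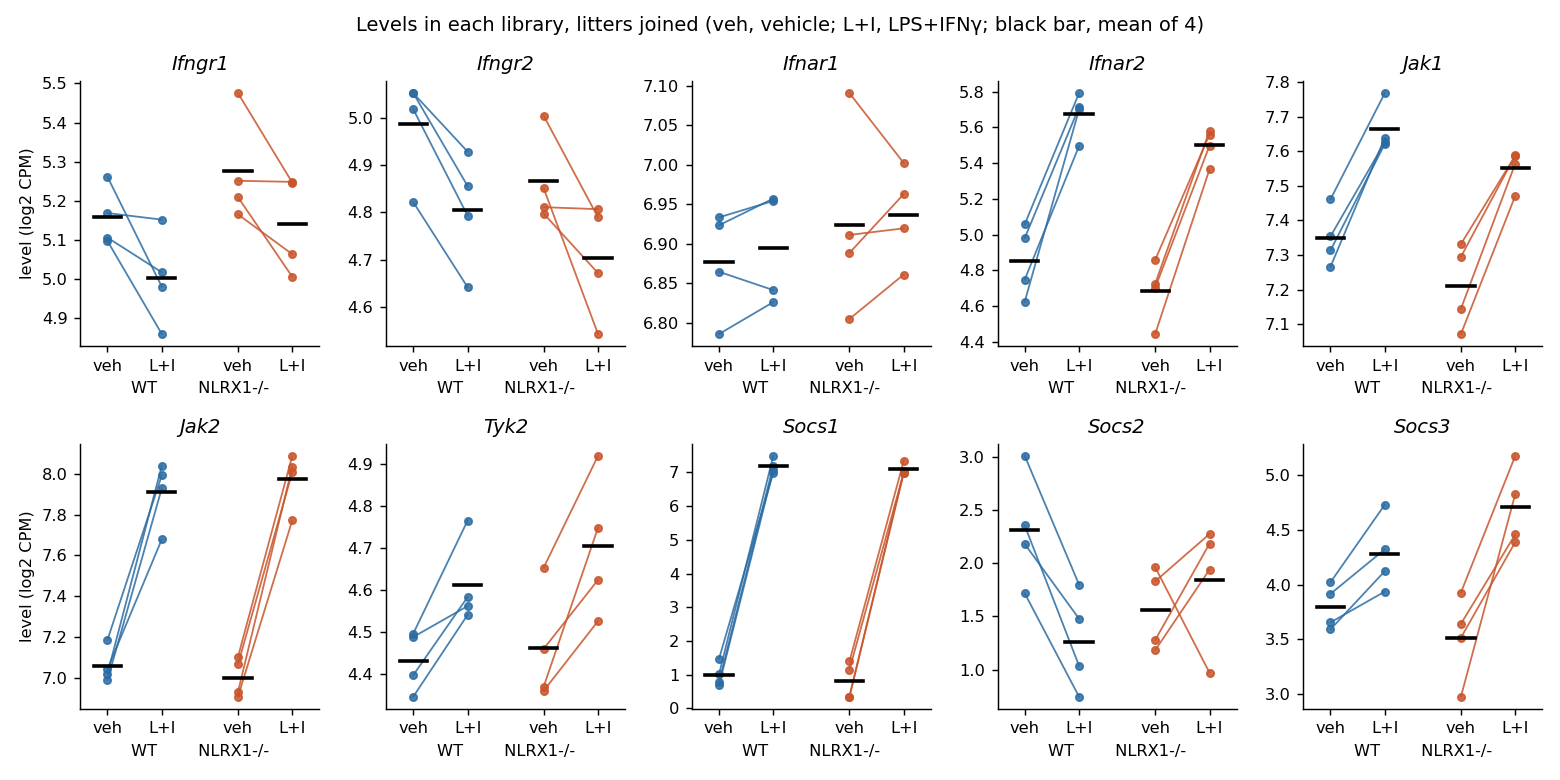
Level of each of the 10 genes in log2 CPM (vertical axis, its own range in each panel) in vehicle and LPS+IFNγ libraries of WT (blue) and NLRX1-/- (orange), with a line joining the libraries of a litter and a black bar at the mean of 4. Socs1 rises steeply in all 8 litters, Socs2 falls in the 4 WT litters and in 1 of the 4 NLRX1-/- litters, and Ifnar1 stays between 6.79 and 7.09.

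The 300 bases around each gene's start, from 250 before to 50 after it, were searched for a gamma-activated site, TTCNNNGAA, which reads the same on both strands. The motif was found in 4 of the 10 genes, against 8.81% of 21770 protein-coding genes. The 4 genes were Socs1, Jak2, Ifnar2 and Socs3. All 4 were called higher in both genotypes, as was Jak1, which holds no site. Whether sites go with responses was not tested. They are shown as the members that hold a site, each 5′ to 3′ on the strand of its gene with the site in capitals and 10 bases on either side.
Socs1: gctagccgggTTCCAAGAAgggtcgagat
Jak2: aagcggtcccTTCGCAGAAgtggtggtta
Ifnar2: tgccaaggccTTCCTGGAAgaagagagta
Socs3: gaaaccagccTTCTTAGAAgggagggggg

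The windows are from GRCm39, at chr16:10603835-10603863 (minus strand) for Socs1, chr19:29228529-29228557 (plus) for Jak2, chr16:91169447-91169475 (plus) for Ifnar2 and chr11:117860328-117860356 (minus) for Socs3. The site starts 23 bases into the Socs1 transcript, in an exon that the lncRNA Gm61077 overlaps on the opposite strand, and 138, 214 and 223 bases before the starts of Jak2, Ifnar2 and Socs3. The Socs3 window overlaps an exon of another annotated Socs3 transcript, and the Jak2 window an exon of the lncRNA Gm59364 on the opposite strand. The Ifnar2 window overlaps no Ifnar2 transcript and lies within the gene Gm36587 on the opposite strand. The interferon-stimulated response element core GAAANNGAA was in 0 of the 10 genes and in 8.78% of all promoters, and GGGNNTTTC, a part of the NF-κB motif, was in 1 of the 10, Ifngr2, and in 4.47% of all, both strands searched. A match is a description of letters in the window and does not show that a factor binds there.

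Socs1, whose protein binds and blocks the JAKs, had the largest rise of the 10 genes in both genotypes. The WT vehicle libraries of litters 1 to 4 held 1.47, 0.78, 0.69 and 1.01 log2 CPM of Socs1, and the LPS+IFNγ libraries 6.997, 7.20, 7.07 and 7.49. In NLRX1-/- the values were 1.15, 0.35, 1.39 and 0.35 in vehicle and 6.99, 7.03, 7.35 and 6.99 with LPS+IFNγ. Every treated library lay far above every vehicle library. The libraries were not strand-specific, so reads of Socs1 and of the lncRNA over its exon cannot be told apart. The rise was 73.8-fold in WT (log2 6.21, SE 0.18, adjusted p = 6.24e-11 by limma) and 77.7-fold in NLRX1-/- (log2 6.28, SE 0.18, adjusted p = 5.59e-11). The responses of the litters ran from 5.53 to 6.48 in WT and from 5.84 to 6.68 in NLRX1-/-, so the ranges overlapped. The difference between the genotypes was 0.07 (95% interval -0.47 to 0.62).

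Per transcript length, the order of the genes changed with it. In TPM, the length-corrected level that Salmon gives, Socs1 rose above Jak2, the gene of a kinase that SOCS1 acts on. It went from 0.06 ± 0.015 of the Jak2 level in WT vehicle libraries to 2.56 ± 0.36 times it with LPS+IFNγ (SD, n = 4). In NLRX1-/- the ratio was 0.059 ± 0.023 and 2.34 ± 0.53. Of the summed TPM of Socs1, Socs2 and Socs3, Socs1 made up 19.4% ± 3.1 in WT vehicle libraries and 94.0% ± 1.8 with LPS+IFNγ, and 22.7% ± 6.5 and 91.4% ± 2.7 in NLRX1-/- (SD, n = 4). After LPS+IFNγ nearly all SOCS mRNA among these genes was thus Socs1 in both genotypes.

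In WT vehicle libraries Jak1 was highest by mean TPM at 67.0 ± 2.7, followed by Jak2 at 61.2 ± 1.6 and Ifnar2 at 48.3 ± 5.5 (SD, n = 4). Ifngr1 stood at 39.8 ± 2.4, Ifnar1 at 35.6 ± 1.8 and Ifngr2 at 34.8 ± 2.3. Socs3, Tyk2, Socs2 and Socs1 made up a lower tier at 10.6 ± 1.6, 9.23 ± 0.49, 4.67 ± 1.8 and 3.72 ± 1.0. Neighbours whose libraries overlapped were Ifnar2 and Ifngr1, Ifnar1 and Ifngr2, Socs3 and Tyk2, and Socs2 and Socs1. With LPS+IFNγ Socs1 led at 238 ± 38 TPM, above Jak2 at 93.1 ± 8.6, Ifnar2 at 73.7 ± 4.7 and Jak1 at 71.5 ± 4.6, of which Ifnar2 and Jak1 overlapped. Below them came Ifnar1 at 30.95 ± 1.8, Ifngr1 at 30.7 ± 2.3 and Ifngr2 at 26.3 ± 1.9, each overlapping its neighbour, then Socs3 at 12.98 ± 3.5 and Tyk2 at 8.996 ± 0.76, which also overlapped. Socs2 was then lowest at 1.90 ± 0.68 TPM, apart from Tyk2.

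The order in NLRX1-/- vehicle libraries was the same down to Ifngr2, with Jak1 at 58.6 ± 6.0 TPM and Jak2 at 55.5 ± 5.7, which overlapped there. Ifnar2 stood at 41.5 ± 5.3, Ifngr1 at 41.4 ± 3.9, Ifnar1 at 35.3 ± 2.5 and Ifngr2 at 30.6 ± 2.4, and Tyk2, Socs3, Socs1 and Socs2 at 9.04 ± 0.87, 8.55 ± 2.3, 3.24 ± 1.3 and 2.50 ± 0.69. Other neighbours whose libraries overlapped were Ifnar2 and Ifngr1, Ifnar1 and Ifngr2, Tyk2 and Socs3, and Socs1 and Socs2. The lower tier thus again held the SOCS genes and Tyk2. With LPS+IFNγ Socs1 reached 218 ± 33, Jak2 94.5 ± 7.3, Jak1 65.1 ± 3.9 and Ifnar2 65.0 ± 5.7 TPM in NLRX1-/-, and Jak1 and Ifnar2 overlapped. Ifngr1 stood at 33.2 ± 1.8, Ifnar1 at 31.3 ± 1.0, Ifngr2 at 24.1 ± 1.9, Socs3 at 17.2 ± 4.1, Tyk2 at 9.45 ± 0.93 and Socs2 at 2.80 ± 0.90. The libraries of Ifngr1 and Ifnar1 overlapped, as did those of Ifngr2 and Socs3. Tyk2, the kinase of IFNAR1, was below Jak1 and Jak2 in every group.

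**Figure D2:**
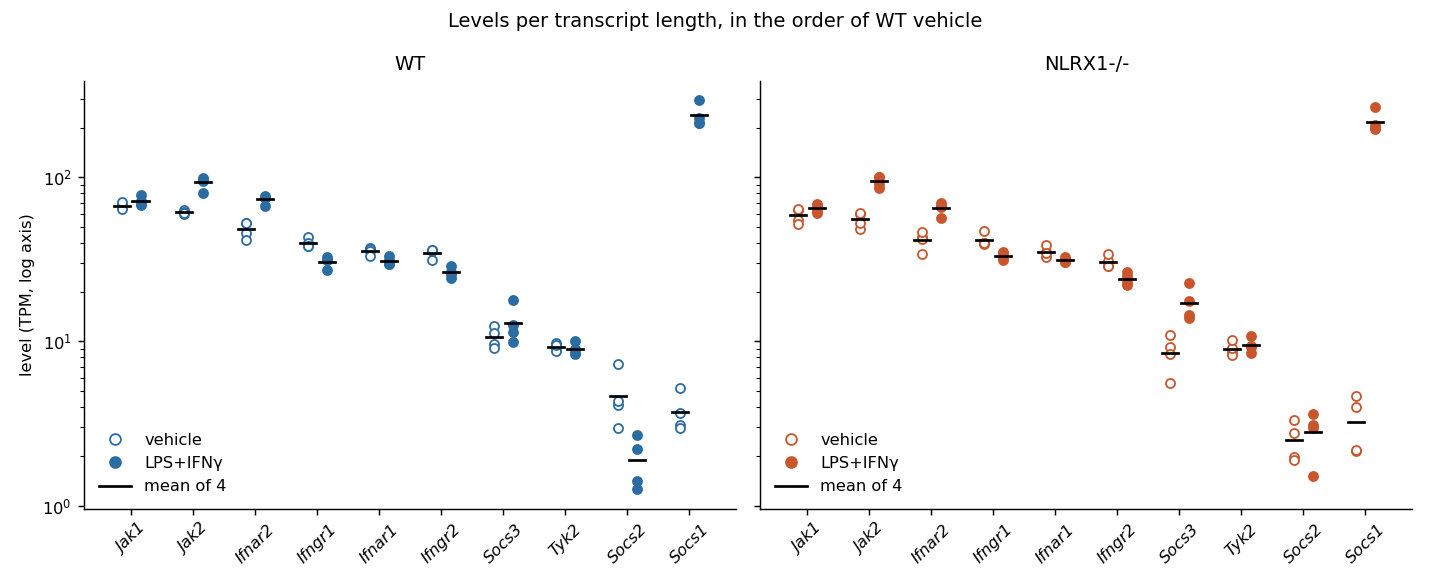
Level of each gene in TPM (log axis) in WT (left) and NLRX1-/- (right), with genes in the order of WT vehicle, open points for vehicle libraries, filled points for LPS+IFNγ libraries and a bar at the mean of 4. Socs1 moves from the foot of the order (mean 3.72 TPM in WT vehicle) to its head (mean 238 TPM in WT with LPS+IFNγ), and Jak1 and Jak2 stay above Tyk2, Socs2 and Socs3 in all 4 groups.

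The mRNAs of the type I interferon receptor chains did not respond as a pair. Ifnar2, the gene of the chain that carries JAK1, held 4.75, 5.06, 4.63 and 4.98 log2 CPM in the WT vehicle libraries and 5.50, 5.79, 5.70 and 5.71 with LPS+IFNγ. In NLRX1-/- it held 4.73, 4.44, 4.70 and 4.86 in vehicle and 5.58, 5.37, 5.50 and 5.56 with LPS+IFNγ. These values sum all Ifnar2 transcripts, and most of the Ifnar2 TPM was assigned to a short one described below. Every treated library lay above every vehicle library of both genotypes. The rise was 1.77-fold in WT (log2 0.82, SE 0.07, adjusted p = 2.51e-06 by limma) and 1.76-fold in NLRX1-/- (adjusted p = 2.17e-06). Ifnar1, its partner chain, lay between 6.79 and 7.09 log2 CPM in all 16 libraries, with a response of 0.02 (95% interval -0.08 to 0.12) in WT and 0.01 (-0.09 to 0.11) in NLRX1-/-. Under quantile normalization its NLRX1-/- response was -0.17 (adjusted p = 0.0139 by limma). In TPM the mean of Ifnar1 was lower with LPS+IFNγ, going from 35.6 to 30.95 in WT and from 35.3 to 31.3 in NLRX1-/-. TPM was not rescaled between libraries as log2 CPM was. Jak1, up 1.24-fold in WT by log2 CPM, went only from 67.0 to 71.5 TPM there. The lower Ifnar1 TPM is therefore not read as a response of the gene. The ratio of Ifnar1 to Ifnar2 in TPM went from 0.75 ± 0.10 to 0.42 ± 0.05 in WT and from 0.87 ± 0.18 to 0.49 ± 0.05 in NLRX1-/- (SD, n = 4), and the vehicle and treated ranges of this ratio did not overlap in either genotype.

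The chains of the interferon gamma receptor were at slightly lower levels with LPS+IFNγ, and 1 of the 4 responses was called. Ifngr2, the chain that carries JAK2, went from 4.82, 5.05, 5.02 and 5.05 log2 CPM in WT vehicle libraries to 4.64, 4.86, 4.79 and 4.93, lower in 4 of 4 litters (log2 -0.18, SE 0.07, adjusted p = 0.0443 by limma). This call was lost without any 1 of the WT litters (adjusted p 0.0726 to 0.134). In NLRX1-/- the Ifngr2 response was -0.16 (adjusted p = 0.0610). Ifngr1, the chain that binds the ligand, was lower in 4 of 4 litters of each genotype, with responses of -0.16 in WT (adjusted p = 0.0779) and -0.13 in NLRX1-/- (adjusted p = 0.117), and neither passed. Both genes passed in both genotypes, as lower, after quantile normalization. The ratio of Ifngr1 to Ifngr2 in TPM was 1.15 ± 0.15 and 1.17 ± 0.11 in WT vehicle and LPS+IFNγ libraries, and 1.36 ± 0.20 and 1.38 ± 0.15 in NLRX1-/- (SD, n = 4).

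Ifnar2, Ifnar1 and Ifngr2 lie within 192.895 kb of chromosome 16 (GRCm39, chr16:91169618-91362512, all on the plus strand), with Il10rb, a chain of the IL-10 receptor, between Ifnar2 and Ifnar1. Along the chromosome the WT responses were 0.82 for Ifnar2, 0.36 for Il10rb (adjusted p = 0.00968 by limma), 0.02 for Ifnar1 and -0.18 for Ifngr2. In NLRX1-/- they were 0.82, 0.21 (adjusted p = 0.0898), 0.01 and -0.16. Neighbouring receptor genes thus differed in their response in each genotype. Ifngr1 lies apart on chromosome 10, at chr10:19467697-19485977.

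Jak2, the kinase of the interferon gamma receptor's second chain, had the second largest mean response. It held 7.19, 6.99, 7.05 and 7.02 log2 CPM in WT vehicle libraries and 7.99, 7.93, 7.68 and 8.04 with LPS+IFNγ, a 1.80-fold rise (log2 0.85, SE 0.06, adjusted p = 5.20e-07 by limma). In NLRX1-/- it went from 7.07, 6.93, 6.91 and 7.10 to 8.01, 8.03, 7.77 and 8.09, a 1.96-fold rise (log2 0.97, SE 0.06, adjusted p = 1.40e-07). Vehicle and treated libraries did not overlap. The difference between the genotypes was 0.12 (95% interval -0.07 to 0.32).

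Jak1, which serves both interferon receptors, rose less. The WT libraries held 7.31, 7.35, 7.27 and 7.46 log2 CPM in vehicle and 7.62, 7.63, 7.64 and 7.77 with LPS+IFNγ (log2 0.32, SE 0.05, adjusted p = 0.000126 by limma). The NLRX1-/- libraries held 7.29, 7.14, 7.33 and 7.07 in vehicle and 7.59, 7.56, 7.59 and 7.47 with LPS+IFNγ (log2 0.34, SE 0.05, adjusted p = 5.56e-05). Jak1 was the 1 member of 10 whose treated libraries did not overlap between the genotypes, the NLRX1-/- ones being lower, against 13.3% of all genes. Its difference in LPS+IFNγ was -0.11 (SE 0.07) and did not pass (adjusted p = 0.270 by limma). In log2 CPM Tyk2 was higher in all 8 litters, by 0.18 in WT (adjusted p = 0.0540) and 0.24 in NLRX1-/- (adjusted p = 0.0125), and its NLRX1-/- call was lost without litter 2 of that genotype (adjusted p = 0.0577). In TPM it was lower with LPS+IFNγ in WT litters 1, 2 and 3 and NLRX1-/- litter 1, and higher in the rest. Mean Tyk2 went from 9.23 to 8.996 TPM in WT and from 9.04 to 9.45 in NLRX1-/-. As TPM was not rescaled between libraries, these shifts are not read as responses. The Tyk2 responses overlapped between the genotypes, with a difference of 0.06 (95% interval -0.16 to 0.28).

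**Figure D3:**
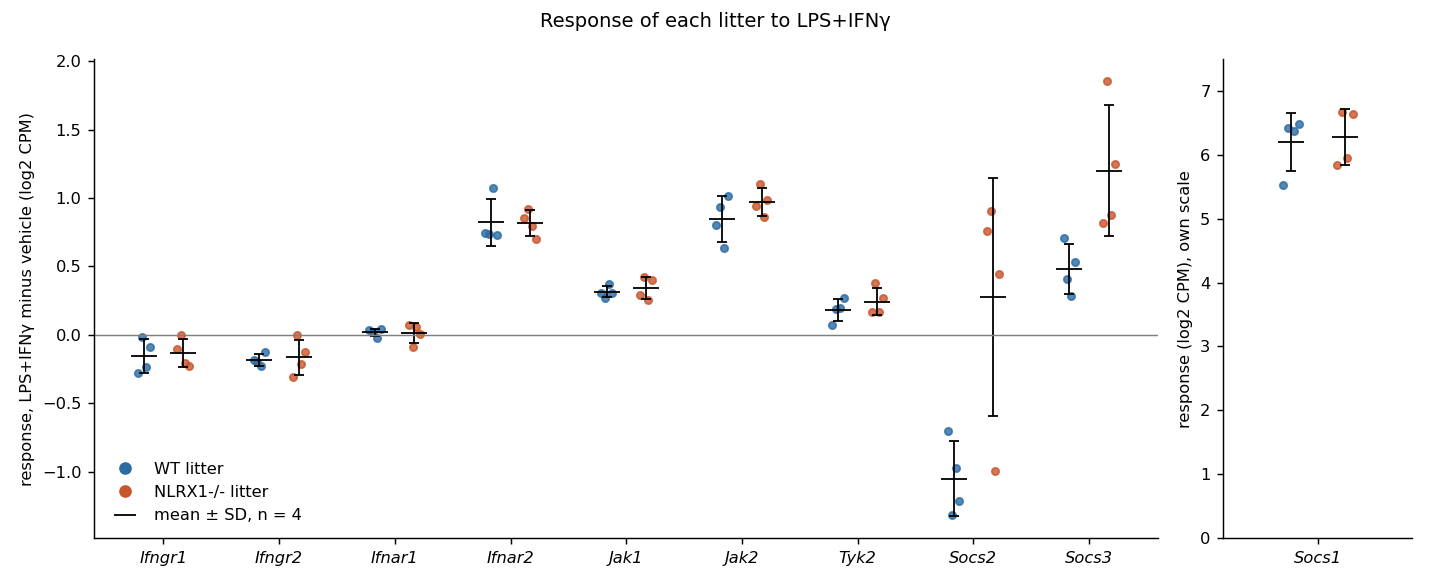
Response of each litter, LPS+IFNγ minus vehicle in log2 CPM, for WT (blue) and NLRX1-/- (orange), with the mean and SD of 4 litters in black and Socs1 on its own scale at the right. The Socs3 responses of NLRX1-/- litters (0.82 to 1.85) lie above those of WT litters (0.28 to 0.71), and the NLRX1-/- Socs2 responses are spread from -0.99 to 0.91.

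Socs3, which binds receptors that use the shared chain gp130 and blocks their JAKs, rose in all 8 litters. Its WT libraries held 4.02, 3.92, 3.65 and 3.59 log2 CPM in vehicle and 4.73, 4.32, 3.94 and 4.12 with LPS+IFNγ, a 1.40-fold rise (log2 0.48, SE 0.15, adjusted p = 0.0180 by limma). This WT call was lost without WT litter 1 (adjusted p = 0.0864) and without WT litter 4 (adjusted p = 0.0601). The NLRX1-/- libraries held 3.64, 2.97, 3.52 and 3.93 in vehicle and 4.46, 4.83, 4.39 and 5.18 with LPS+IFNγ, a 2.30-fold rise (log2 1.20, SE 0.15, adjusted p = 3.24e-05). The NLRX1-/- vehicle and treated libraries did not overlap, whereas in WT the treated library of litter 3 lay among the vehicle ones.

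Socs2, which damps growth hormone and other cytokine receptors, was the 1 member whose mean response differed in sign between the genotypes. In WT it fell in 4 of 4 litters, from 2.18, 2.35, 1.72 and 3.01 log2 CPM to 1.48, 1.04, 0.75 and 1.80, which is 2.07-fold lower (log2 -1.05, SE 0.27, adjusted p = 0.00759 by limma). In NLRX1-/- it went from 1.18, 1.28, 1.96 and 1.83 to 1.94, 2.18, 0.97 and 2.27, higher in litters 1, 2 and 4 and lower in litter 3 (log2 0.28, SE 0.27, adjusted p = 0.417). Without litter 3 the NLRX1-/- response was 0.70 (adjusted p = 0.0135). Socs2 had 45 to 258 assigned read pairs in a library, so its values carry more counting error than those of the kinases.

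The study asked whether cells without NLRX1 respond differently to LPS+IFNγ, which is the difference of the responses. With all 8 litters, 0 of the 10 genes and 0% of all genes passed by limma, with 2 of the 10 and 2786 of all genes at an unadjusted p below 0.05. By the count-based tests edgeR called 0 of all genes, 1 with no filter on low counts, and DESeq2 called 285, none of them among the 10. The adjusted p of Socs2 and Socs3 was 0.0600 and 0.0647 by DESeq2, and 0.222 for each by edgeR. The study took its own gene lists from DESeq2 and reported genes with a stronger and genes with a weaker response in NLRX1-/- cells. The members at an unadjusted p below 0.05 were Socs2, with a difference of 1.33 (95% interval 0.49 to 2.17, adjusted p = 0.177), and Socs3, with 0.72 (0.26 to 1.17, adjusted p = 0.177). Without NLRX1-/- litter 3, Socs2 (1.75, adjusted p = 0.0158) and Socs3 (0.82, adjusted p = 0.0479) were both called, beside 822 of all genes. That was the NLRX1-/- litter in which Socs2 fell. Over 19 alternatives the difference stayed above 0 for both genes, from 1.05 to 1.75 for Socs2 (adjusted p 0.0158 to 0.652) and from 0.50 to 0.84 for Socs3 (adjusted p 0.0479 to 0.652). Of these, only the fit without NLRX1-/- litter 3 called either gene.

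Socs3 was the 1 member of 10 whose litter responses did not overlap between the genotypes, against 8.31% of all genes. The other 8 members had differences between -0.01 and 0.12. Their 95% intervals reached at most 0.62 on the log2 scale for Socs1 and 0.32 for the receptors and kinases, which bounds the differences but does not show that the genotypes responded alike.

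**Figure D4:**
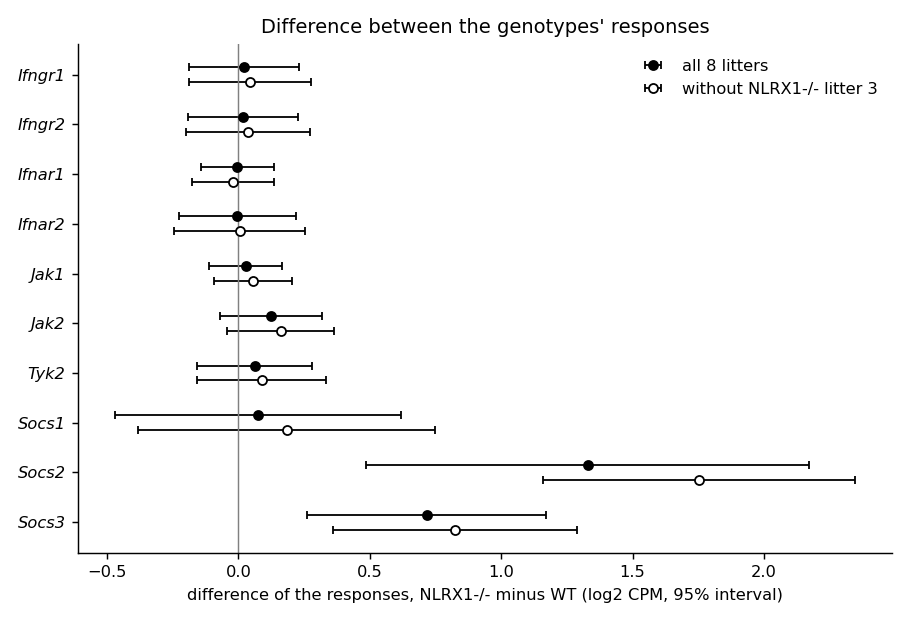
Difference of the responses, NLRX1-/- minus WT, in log2 CPM (horizontal axis) with 95% intervals from limma for each gene, from all 8 litters (filled) and without NLRX1-/- litter 3 (open). Socs2 (1.33) and Socs3 (0.72) lie above 0 with and without that litter, and the other 8 intervals include 0. The intervals are those of single genes, with no adjustment for the number of genes. With all 8 litters neither Socs2 nor Socs3 was called (adjusted p = 0.177 for each by limma).

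Within a treatment, the levels of the 10 genes in NLRX1-/- and WT cells were also compared directly. In vehicle 0 of the 10 were called by limma, against 0.00599% of all genes, which is Nlrx1 alone (lower in NLRX1-/-, adjusted p = 0.0497), with 3532 genes at an unadjusted p below 0.05. That count of 1 over all genes was 0 by edgeR, 673 by DESeq2, 494 without WT litter 1 and 1618 without NLRX1-/- litter 3, and none of the 10 genes was among those called. The vehicle libraries of the genotypes overlapped for all 10 genes, against 9.45% of all genes that did not overlap. Of the 10, 1 had an unadjusted p below 0.05 in vehicle, Socs2, which was 0.75 lower in NLRX1-/- (log2 -0.75, SE 0.33, adjusted p = 0.210). In LPS+IFNγ 0 of the 10 were called, against 8.8% of all genes, with Socs2 0.58 higher (SE 0.33, adjusted p = 0.254) and Socs3 0.44 higher (SE 0.21, adjusted p = 0.186) in NLRX1-/-. The count over all genes in LPS+IFNγ, 1471, rested on the libraries in the fit, being 1 without WT litter 2, 3 or 4, 2 without NLRX1-/- litter 2 or 4, 796 without NLRX1-/- litter 1 and 3868 without NLRX1-/- litter 3.

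Salmon's estimates gave most members 1 leading RefSeq transcript. Ifnar2 was assigned mostly to a short transcript of 1169 bases, which held 84.0% to 85.9% of its TPM as group means, while the 3051-base transcript held 5.0% to 9.8%. With LPS+IFNγ the short transcript went from a mean of 41.2 to 63.4 TPM in WT and from 34.9 to 54.8 in NLRX1-/-. The 3051-base transcript went from 3.94 to 3.67 TPM in WT and from 2.61 to 6.49 in NLRX1-/-. By these estimates the rise of Ifnar2 was mostly that of the short transcript. Whether the short transcript encodes the part that binds JAK1 was not examined. Tyk2 was the most divided, with its 4822-base transcript at a mean of 50.8% in WT vehicle libraries and 73.7% with LPS+IFNγ, and 61.0% and 79.8% in NLRX1-/-. Single libraries varied widely, from 0% to 73.1% and from 46.4% to 87.6% in WT. In NLRX1-/- they ran from 35.5% to 79.1% and from 55.7% to 97.5%. Of 21 transcripts compared within litters, 0 passed an exact two-sided sign-flip permutation test over the 8 litters after adjustment (lowest adjusted p = 0.492).

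The genes whose 16 values ran closest to a member's, after each gene was centred on its own mean, were sought among 11968 genes by the root mean square difference in log2 CPM. For Socs1 they were H2-DMa (0.30), an antigen presentation gene, Irgm1 (0.31), an interferon-inducible GTPase, and Parp10 (0.36). For Jak2 they were Trim26 (0.08), Dock4 (0.10) and Abca8b (0.11). For Socs3 they were Arl4c, Pcgf5 and Nuak2 at 0.24 each. For Socs2 they were Fos, the immediate early transcription factor (0.42), Cacng5 (0.43) and Pcdhb12 (0.43), the largest of the distances given here.

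The rest of the pathway was followed through lists of its genes. Of 7 STATs and partners in the table, of 8 listed, all 7 were called higher in each genotype, by a median of 1.13 in WT and 1.12 in NLRX1-/- on the log2 scale. The largest were Irf1, an interferon-induced transcription factor (5.81 in WT, 5.60 in NLRX1-/-), Stat2 (3.75 and 4.02) and Irf9, its partner (2.36 and 2.61). The response of Socs1 (6.21 and 6.28) was above each of these. The kinases and receptors upstream of them, at 0.97 or less, were far below Irf1, Stat2 and Irf9. They were also below the list's medians of 1.13 and 1.12, the largest of them, Jak2, by less.

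Of 6 further SOCS and JAK family genes, 0 were called in WT (median 0.11) and 3 in NLRX1-/-, all higher (median 0.15). They were Cish, a SOCS family member (0.88, adjusted p = 0.00593), Jak3 (0.81, adjusted p = 0.00166) and Socs5 (0.27, adjusted p = 0.0199), beside the 26.6% of all genes called higher there. In WT the same genes had responses of 0.07, 0.30 and 0.14. For the difference of the responses 0 of the 6 were called (adjusted p = 0.237 for Cish, 0.309 for Jak3 and 0.631 for Socs5). Cish was also higher in NLRX1-/- than in WT with LPS+IFNγ (0.81, adjusted p = 0.0410). Of the 6 genes none was called there by edgeR, with only the 8 treated libraries, or without WT litter 2, 3 or 4 or NLRX1-/- litter 1, 2 or 4.

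Of 11 other brakes on JAK-STAT signalling in the table, of 12 listed, 3 were called higher in WT and 4 in NLRX1-/-, and 0 lower (medians 0.12 and 0.15). Usp18, which blocks signalling at IFNAR2, rose by 4.86 and 5.11. The tyrosine phosphatase gene Ptpn2 rose by 0.42 and 0.70, while Ptpn6, at a mean below 0 log2 CPM, had 0.19 and 0.95 and did not pass. Ptpn1, another phosphatase gene, rose by 0.31 and 0.37 and was higher in NLRX1-/- with LPS+IFNγ (adjusted p = 0.0349). None of the 11 was called there with only the 8 treated libraries, or without WT litter 2, 3 or 4 or NLRX1-/- litter 2 or 4.

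Of 21 other JAK-coupled cytokine receptor chains in the table, of 29 listed, 10 were called higher and 3 lower in WT, and 10 and 1 in NLRX1-/- (medians 0.38 and 0.43). Il12rb1, a chain of the IL-12 receptor, had 0 to 5 read pairs in vehicle libraries and 1049 to 2162 with LPS+IFNγ, and at a floor of 3 read pairs in each library the rise was at least 446-fold in NLRX1-/-. Il2rg, the shared gamma chain, stayed at 3 to 18 read pairs with LPS+IFNγ, close to that floor. Il6ra, the IL-6 receptor chain, rose by 2.06 and 2.59. Of the 10 interferon ligand genes listed, 0 were in the log2 CPM table, and 6 had 0 read pairs in all 16 libraries. Ifnb1, the interferon beta gene, had 0 in the vehicle libraries and at most 24 with LPS+IFNγ.

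**Figure D5:**
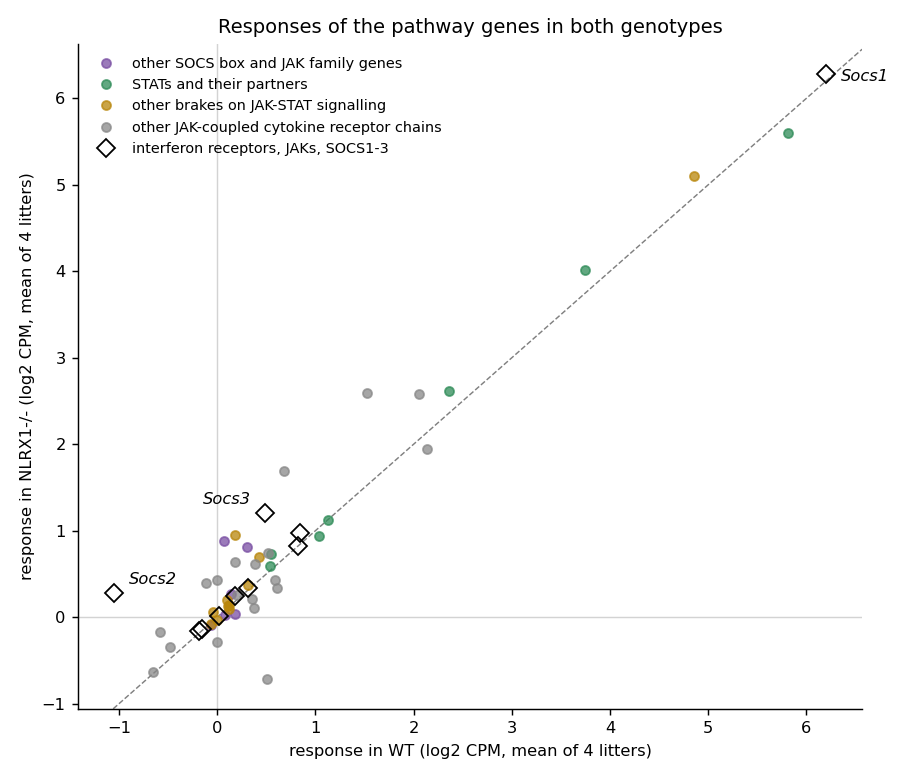
Response in WT (horizontal axis) against response in NLRX1-/- (vertical axis), both in log2 CPM as means of 4 litters, for the 10 genes (open diamonds) and the pathway lists (coloured points), with a dashed line of equal response. Il12rb1 and Il2rg, at 0 read pairs in the NLRX1-/- vehicle libraries, are left out. Socs1 lies beside Irf1 at the upper end, while Socs2 (-1.05 and 0.28) and Socs3 (0.48 and 1.20) lie off the line.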

How the data were processed

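RNA was quantified by the authors with Salmon 1.7.0 on GRCm39, which gave, per library and transcript, estimated counts and TPM as deposited. The authors summed transcripts to genes, filtered low genes and scaled by TMM, and the deposited table of length-scaled CPM (checked as signal, since its column sums run from 923353 to 1109135) and its log2 values (prior count 0.0573) hold 16707 genes. No column lacked a sample. Of 129698 transcripts, 106440 were paired with a symbol, holding 96.7% to 97.3% of the reads. The log2 table was tested because it holds all transcripts, with limma 3.58.1 (R 4.3.3, trended eBayes): responses and their difference with genotype, litter within genotype and treatment within genotype, and genotype contrasts on 4 groups without litter. The p-values were Benjamini-Hochberg adjusted over all genes. Fold changes are on the log2(CPM + prior) scale. The alternatives were edgeR 4.0.16 (minimum count 10, or none) and DESeq2 1.42.0 on estimated gene counts rounded to whole numbers, other scalings, a pseudocount of 1, a filter on mean level, a threshold of 0.01, the block, and each litter left out. Limma on reads with no length scaling was added after seeing the data. TPM served to rank genes within a group and to form ratios and shares between genes or transcripts within a library, which were then set side by side across groups. TPM levels of Ifnar1, Tyk2 and the Ifnar2 transcripts are also given across treatments, with no rescaling between libraries.

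Litters pair the libraries by the submitters' design, with correlations of deviations within litters from 0.07 to 0.35. Promoter windows used GENCODE M39 canonical starts. Members and lists were chosen with earlier results of these data known. Named genes are the 10 members, the 3 list genes with the largest mean absolute response, those called between genotypes, and the 3 genes most alike to a member; other list genes named were chosen after their values were seen. The limma fit was tested on simulated data: folds, signs and the share of false calls were recovered, but for the difference of the responses more of the simulated 2-fold changes were missed than found, and pass marks on recovery, not met for that comparison, were dropped. A list gene and a marker gene are not reported here.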

Additional observations from a re-analysis of the deposited data

Results flagged for a closer look

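In 60 groups of 4 values (the level of each gene in each group and its response in each genotype), 5 held a value far from the other 3, and chance gives about 1 in 20. For levels these were Ifngr2 in the vehicle library of WT litter 1 (4.82 log2 CPM), which was low, Jak1 in the LPS+IFNγ library of WT litter 4 (7.77), which was high, and Socs1 in the LPS+IFNγ library of NLRX1-/- litter 3 (7.35), which was high. For responses they were Ifnar2 in WT litter 3 (1.08), which was high, and Socs1 in WT litter 1 (5.53), which was low. The calls of Jak1, Socs1 and Ifnar2 held without any 1 of the litters, and that of Ifngr2 in WT did not hold without litter 1 or without any other WT litter.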

How the results depend on the processing

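The responses of Socs1, Jak2, Ifnar2 and Jak1 were called higher in both genotypes under all 15 alternatives, as were Socs3 in NLRX1-/- and the fall of Socs2 in WT. Among the 10 genes, the count called lower in WT (2) was 1 by edgeR with no count filter, at adjusted p below 0.01, with no replicate block and without any 1 WT litter (1 to 1). The count called lower in NLRX1-/- (0) was 3 after quantile normalization, 2 after median centring, 1 on reads with no length scaling and 0 to 1 with a litter left out. The Ifnar1 response in NLRX1-/- (0.01, not called) reversed to -0.17 after quantile normalization. The members called for a difference of responses (0) were 2 without NLRX1-/- litter 3 and 0 without any other litter.

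Over all genes, the count lower in WT (3656) was 2395 at adjusted p below 0.01. The count for the difference (0) was 1 by edgeR with no count filter, 285 by DESeq2 and 0 to 822 with a litter left out. In vehicle the count between genotypes (1) was 0 by edgeR, with a mean of at least 1 log2 CPM, after quantile normalization, with no mean trend, at adjusted p below 0.01 and with only the 8 libraries of the treatment. It was 2 after median centring and on unscaled reads, 673 by DESeq2, 591 with the replicate block (the replicate number as a term shared by the genotypes, whose litters share only that number) and 0 to 1618 with a litter left out (494 without WT litter 1, 1618 without NLRX1-/- litter 3). In LPS+IFNγ it (1471) was 759 by edgeR, 552 with no count filter, 2346 by DESeq2, 2 with no mean trend, 1 at adjusted p below 0.01, 2815 with the replicate block, 1 with only the 8 libraries and 1 to 3868 with a litter left out. The block changed the call of Ifngr2 and Socs3 in WT and Tyk2 in NLRX1-/-, which were lost without it (adjusted p 0.118, 0.0917 and 0.0512), and no other call of the 10 genes. The cause of these changes was not tested. Of 910 comparisons of a gene's fold with an alternative, 878 kept their side of the threshold and, where called, their direction. Folds that changed sign but were called in neither fit are counted among the 878.

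Limits: 4 litters per genotype, nested in genotype, leave the genotype comparisons resting on the spread between litters. Reads were not strand-specific, so those of a gene and an overlapping antisense gene cannot be told apart. Socs2 and vehicle Socs1 rest on few reads.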

Other observations

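Among the receptor chains that signal through gp130, the IL-6 family, the responses of 2 genes were chosen after their values were seen. Il6st, which encodes gp130, had a response of 0.00 in WT (adjusted p = 0.987 by limma) and 0.43 in NLRX1-/- (adjusted p = 0.000912), and Osmr, the oncostatin M receptor chain, 0.68 (adjusted p = 0.0598) and 1.69 (adjusted p = 0.000268). The difference of the responses did not pass for either (adjusted p = 0.168 and 0.227). Cntfr, the chain for ciliary neurotrophic factor, fell in both genotypes, by 0.65 and 0.64.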
